A study of Mus musculus with 6 samples.

Results

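The urea cycle was followed through 9 genes of the mouse liver, 5 of which encode its enzymes and 4 of which encode carriers for its intermediates or products. The members were taken by name, and their probes were found through the RefSeq accessions on the array, which gave 12 of the 56605 non-control probes and 9 of the 22911 genes with a symbol. The rule uses no measured value, but the members were chosen with earlier results of these data known. The livers came from 6 male mice. The study's methods give their age as 12 weeks where the feeding is described, so it is read here as the age at its start. Of these mice, 3 ate granulated regular chow alone (control) and 3 ate chow made of 75% regular food and 25% soy bean powder (soy), in both cases for 4 weeks and as much as they wanted. The strain is not given in the sources used here, and the labels name no allele or agent other than the feed. Tissue came from the right hepatic lobe, RNA of each mouse was labelled with 1 dye and hybridized to 1 array (Agilent G3 Mouse Gene Expression v.2), and the mice are named control 1 to 3 and soy 1 to 3. By the study's own analysis of both feeds, the soy-enriched chow held more protein and fat and less available carbohydrate, and the comparison therefore asked whether the machinery of nitrogen disposal read out that feed. Whole soy bean was fed, so protein cannot be told apart from the other components of the bean.

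The urea cycle turns ammonia from amino acid breakdown into urea, mostly in the hepatocytes that surround the portal vein. Its first steps run in the mitochondrion and its later steps in the cytosol, so that ornithine, citrulline and aspartate have to cross the inner mitochondrial membrane. The mRNAs of its enzymes are known to rise together with protein intake and under glucagon and glucocorticoids.

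Promoter sequences are shown for 3 members, as the DNA before the start sites of 2 genes whose soy arrays lay below the control arrays (Ass1, Slc25a15) and of 1 gene whose groups overlapped (Nags). They are RefSeq windows of build GRCm38.p6, 250 bases each, read 5′ to 3′ on the strand of the gene, and they lie at chr2:31470020-31470269 (plus strand), chr8:22398622-22398871 (minus strand) and chr11:102145263-102145512 (plus strand) in that order. Capitals mark the GC box (GGGCGG) and the E-box (CACGTG), searched on both strands, so that a GC box on the other strand reads CCGCCC.
Ass1: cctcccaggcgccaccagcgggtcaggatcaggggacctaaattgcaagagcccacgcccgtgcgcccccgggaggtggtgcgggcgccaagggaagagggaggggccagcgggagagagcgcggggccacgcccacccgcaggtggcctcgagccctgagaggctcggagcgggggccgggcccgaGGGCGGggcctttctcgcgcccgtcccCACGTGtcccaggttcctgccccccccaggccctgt
Slc25a15: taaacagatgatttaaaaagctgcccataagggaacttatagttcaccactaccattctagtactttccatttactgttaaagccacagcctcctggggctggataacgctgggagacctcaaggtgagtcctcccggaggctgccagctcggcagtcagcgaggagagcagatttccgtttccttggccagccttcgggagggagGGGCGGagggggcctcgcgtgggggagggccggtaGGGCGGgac
Nags: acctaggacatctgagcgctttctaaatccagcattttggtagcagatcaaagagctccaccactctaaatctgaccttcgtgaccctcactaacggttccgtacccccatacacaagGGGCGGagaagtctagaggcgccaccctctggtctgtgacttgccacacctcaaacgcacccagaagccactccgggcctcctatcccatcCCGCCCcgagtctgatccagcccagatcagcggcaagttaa

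The table used here held a promoter for 6 of the 9 members. The GC box was found before Ass1, Slc25a15 and Nags and in 32.7% of all 32851 promoters, and the E-box before Ass1, Slc25a13 and the downstream start of Slc25a15 and in 6.02% of all promoters. Both motifs were picked after the sequences had been seen. Of 3 motifs for hormone-regulated factors, the cyclic AMP response element (TGACGTCA) was found in none of the members' windows and in 1.55% of all promoters. The C/EBP motif (TTGCNNAA) and the core of the glucocorticoid receptor motif (AGAACA) were found only before Aqp9 among the members, and in 9.56% and 16.1% of all promoters. These matches describe letters in a window and do not mark bound sites.

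All 12 probes of the members were well above background on all 6 arrays, and no spot on any array was saturated. Across the whole array, however, 62.4%, 61.3% and 64.4% of the spots were well above background in the control livers and 52.8%, 53.9% and 54.8% in the soy livers, and this difference between the groups went along with every comparison below. Its part in the results was not tested. Control 1, control 2 and soy 1 shared slide 1, soy 2 was alone on slide 2, and control 3 and soy 3 shared slide 3, so changes were also taken within slide 1 and within slide 3. Levels are log2 of the quantile-normalized signal, changes are soy minus control on that scale, errors are limma standard errors (SE) and the number of arrays, 3 per group, limits their precision. Levels of different probes cannot be ranked against each other. A gene was called at an adjusted p under 0.05 (limma, Benjamini-Hochberg over all probes) and a ratio of soy to control above 1.5 or under 0.66, and was given by its brightest probe.

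None of the 9 members was called in either direction. The smallest adjusted p was 0.169 (limma), although 4 members, Cps1, Ass1, Slc25a15 and Slc7a2, had an unadjusted p under 0.05. Among all 22911 genes, 105 (0.458%) were called, 66 (0.288%) higher and 39 (0.170%) lower in soy, and 3262 had an unadjusted p under 0.05. Over all 56605 probes, 198 (0.350%) were called, and between 25 and 203 when 1 array was left out. The soy arrays lay wholly below the control arrays for 4 of these members, and the groups of the other 5 overlapped. Of all genes, 20.5% had groups that did not overlap, 10.8% lower and 9.68% higher in soy. Of the 27310 probes that, like those of the members, were well above background on all arrays, 23.8% had such groups, 12.1% lower and 11.7% higher. The median change of the 9 members was -0.43, against -0.01 for all genes. This median is the value of Asl and lies at the edge of a gap, since the next member above it, Otc, had a change of -0.08. The changes of 7 members were below 0 and those of 2 (Nags and Aqp9) above 0.

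**Figure D1:**
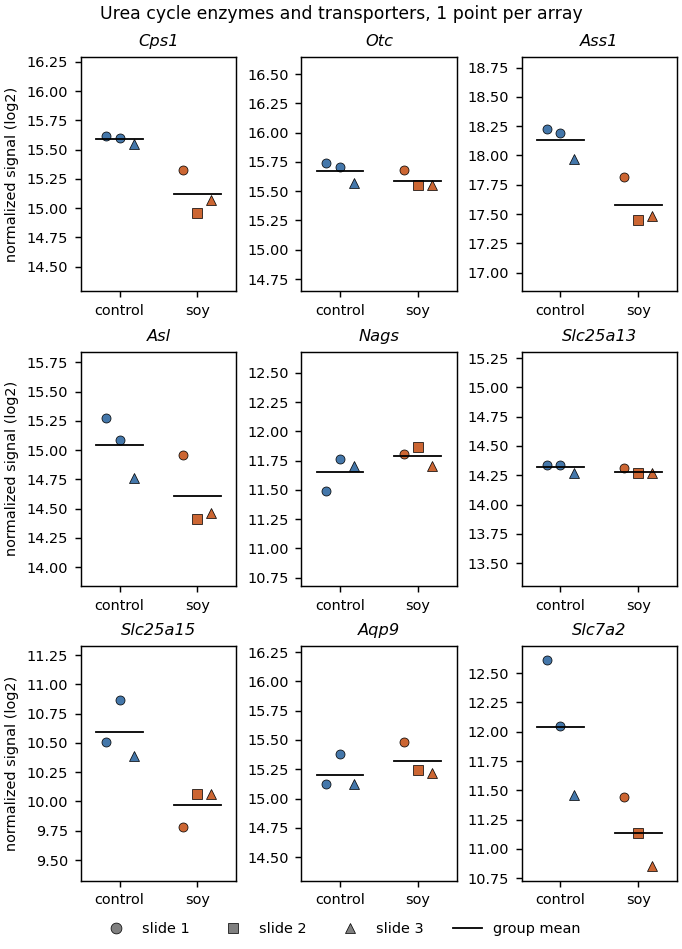
Normalized signal (log2) of the brightest probe of each urea cycle member, with 1 point per array, the group mean as a line and the slide as the marker shape; each panel spans the same number of log2 units. The groups do not overlap for Cps1, Ass1, Slc25a15 and Slc7a2, where soy is lower, and overlap for the other 5 members.

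Carbamoyl phosphate enters the cycle through Cps1, the mitochondrial synthetase that fixes ammonia and sets the pace of urea synthesis. Its probe (NM_001080809) read 15.62, 15.60 and 15.55 on control 1 to 3 and 15.33, 14.96 and 15.07 on soy 1 to 3. All soy arrays lay below all control arrays, the 3 controls were nearly level with each other, and soy 1 was the highest of the soy arrays. The change was -0.47 (SE 0.12, 95% interval -0.75 to -0.20), a signal 0.721 times that of control, with an adjusted p of 0.178 (limma). It was -0.28 within slide 1 and -0.48 within slide 3.

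Nags makes N-acetylglutamate, the compound without which Cps1 is inactive. It read 11.49, 11.76 and 11.70 in the control livers and 11.81, 11.87 and 11.70 in the soy livers, so that the groups overlapped. Its change was 0.14 (SE 0.11, interval -0.12 to 0.40), with an adjusted p of 0.680 (limma). The point estimates of the synthetase and of the enzyme that makes its activator thus had opposite signs, and neither passed the test.

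Otc joins carbamoyl phosphate to ornithine to form citrulline in the mitochondrion. Its brighter probe (NM_008769) read 15.74, 15.71 and 15.57 in the control livers and 15.68, 15.55 and 15.55 in the soy livers. The groups overlapped and the change was -0.08 (SE 0.10, interval -0.32 to 0.15), with an adjusted p of 0.801 (limma). A second, dimmer probe annotated to a predicted transcript (XM_011247449) read 8.96, 8.98 and 8.59 against 8.53, 8.58 and 8.42, a change of -0.33 with an adjusted p of 0.394 (limma). Its groups were separated by 0.008 log2 units only. Both probes had the same sign.

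Ass1 and Asl carry out the cytosolic steps in which aspartate supplies nitrogen to the cycle. Ass1, which joins citrulline with aspartate, read 18.23, 18.19 and 17.97 in the control livers and 17.82, 17.45 and 17.48 in the soy livers. Every soy array lay below every control array, with soy 1 nearest to control 3. The change was -0.55 (SE 0.14, interval -0.86 to -0.23), a signal 0.684 times that of control, with an adjusted p of 0.174 (limma), and it was -0.39 within slide 1 and -0.50 within slide 3. Asl, which splits argininosuccinate into arginine and fumarate, read 15.27, 15.09 and 14.76 in the control livers and 14.96, 14.41 and 14.46 in the soy livers. Soy 1 lay above control 3, and the change was -0.43 (SE 0.19, interval -0.86 to 0.01), with an adjusted p of 0.445 (limma). In both genes control 1 was the highest array, and soy 2 the lowest.

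Slc25a15 is the mitochondrial carrier that exchanges cytosolic ornithine for citrulline. It read 10.51, 10.87 and 10.39 in the control livers and 9.78, 10.06 and 10.06 in the soy livers. Here soy 1 was the lowest array, unlike in Cps1, Ass1 and Asl, and the gap between the groups, 0.329, was the widest among the members. The change was -0.62 (SE 0.15, interval -0.98 to -0.27), a signal 0.650 times that of control, with the smallest adjusted p of the members, 0.169 (limma). It was -0.91 within slide 1 and -0.33 within slide 3. Its close paralogue Slc25a2 changed by 0.16 (SE 0.23, adjusted p 0.842), and cross-hybridization between such paralogues was not tested.

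Slc25a13, citrin, exports aspartate from the mitochondrion for the Ass1 step. Its brighter probe (NM_015829) read 14.34, 14.34 and 14.27 in the control livers and 14.31, 14.27 and 14.27 in the soy livers. All arrays lay close together, the change was -0.03 (SE 0.09), and the 95% interval, -0.24 to 0.17, stayed within the fold thresholds. A second probe (XM_006505136) had a change of 0.05 with an adjusted p of 0.874, and the paralogue Slc25a12 one of 0.01 with an adjusted p of 0.994 (limma).

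Slc7a2 brings arginine and other cationic amino acids into the cell. It read 12.61, 12.05 and 11.46 in the control livers and 11.44, 11.14 and 10.85 in the soy livers. The groups did not overlap, but soy 1 lay only 0.018 below control 3, and the controls alone ranged over 1.15, the widest control range of the members. The change was -0.89 (SE 0.28, interval -1.56 to -0.23), a signal 0.538 times that of control and the largest point estimate of the members, with an adjusted p of 0.287 (limma). The paralogue Slc7a1 changed by -0.01 (SE 0.13, adjusted p 0.991).

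Aqp9, a channel of the hepatocyte membrane for glycerol and urea, read 15.12, 15.38 and 15.12 in the control livers and 15.48, 15.24 and 15.22 in the soy livers. The groups overlapped, and the change was 0.11 (SE 0.12, interval -0.18 to 0.40), with an adjusted p of 0.781 (limma). A dimmer second probe (XM_011242783) had a change of 0.03 with an adjusted p of 0.961.

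**Figure D2:**
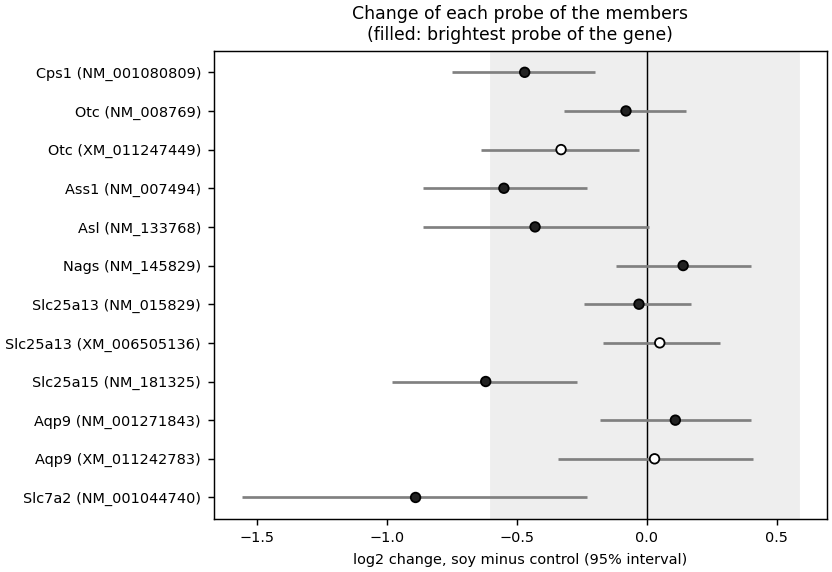
Change of each of the 12 probes (soy minus control, log2), with 95% limma intervals as lines; filled points are the brightest probe of a gene, open points the further probes, and the shaded band lies between the fold thresholds of 0.66 and 1.5. Slc25a15 and Slc7a2 lie outside the band, and the 3 genes with 2 probes lie near 0 in their brightest probe.

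By fold alone, Slc25a15 and Slc7a2 were past the threshold. The intervals of 5 members (Cps1, Ass1, Asl, Slc25a15 and Slc7a2) reached past the lower fold threshold, so that a fall of that size and a smaller one could not be separated for them with 3 arrays per group. Control 3 was the lowest control array for 7 of the 9 members and soy 1 the highest soy array for 7, and both stood nearest to the other group for Cps1, Ass1, Asl and Slc7a2. Each mouse was 1 array, and control 3 lay on another slide than the other controls, so mouse, array and slide cannot be told apart. Ranges were from 0.07 to 1.15 over the controls and from 0.05 to 0.59 over the soy arrays. The changes within slide 1 and within slide 3 had the same sign for 7 members, while those of Nags and Slc25a13 within slide 3 were 0.00 at 2 decimals. With the slide as a block in the fit, the change of Asl was -0.25 in place of -0.43, and those of Cps1, Ass1, Slc25a15 and Slc7a2 were -0.37, -0.44, -0.66 and -0.77.

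The genes next to the cycle were read from 6 lists of related genes, 125 of 127 of them measured. Of these, 3 were called lower in soy (Got1, Acmsd and Igfbp1) and none higher, and their median change was -0.08. Their soy arrays lay wholly below the control arrays for 24 genes and wholly above for 8, beside 10.8% and 9.68% of all genes, and beside 0.458% of all genes called. The lists were chosen with earlier results of these data known, so their counts are not an independent test. With 1 array left out, Got1 was called in 1 of the 6 fits, Acmsd in 1 and Igfbp1 in 2. Their changes in these fits were -2.53 to -1.95, -1.37 to -1.10 and -2.75 to -2.26, with adjusted p up to 0.120, 0.128 and 0.108 (limma). Without control 2 or without soy 2 none of the 125 was called, and without soy 1 the 1 gene called was Oat. With the slide as a block none was called, and the changes of Got1, Acmsd and Igfbp1 were -2.18, -1.33 and -2.49. Blocking on replicate number left Igfbp1 uncalled (adjusted p 0.0854, limma), at a change of -2.5. An offset of 16 left Got1 and Acmsd uncalled (adjusted p 0.0545 and 0.0667, limma), at changes of -2.22 and -1.26.

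The supply of ammonia, glutamate and aspartate was measured in 14 genes with a median change of -0.11. Got1, the cytosolic transaminase that interconverts aspartate and glutamate, read 16.77, 16.34 and 15.60 in the control livers and 14.10, 14.18 and 13.80 in the soy livers. The groups were far apart, with control 3 nearest to soy, and Got1 fell by 2.21 (SE 0.28, adjusted p 0.0308, limma), to 0.216 times control. It was the only gene of this list that was called. Its mitochondrial partner Got2 differed by 0.08 (SE 0.11, adjusted p 0.833). Asrgl1, which releases aspartate from asparagine, had soy arrays wholly above the controls, with a change of 0.67 (SE 0.21, adjusted p 0.282). The enzymes that release or bind ammonia overlapped between the groups, with changes of 0.24 for Glud1 (glutamate dehydrogenase), -0.43 for Gls2 (liver glutaminase) and -0.17 for Glul (glutamine synthetase). Car5a, the mitochondrial carbonic anhydrase that supplies bicarbonate to Cps1, had a change of 0.12 (SE 0.11, adjusted p 0.725).

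**Figure D3:**
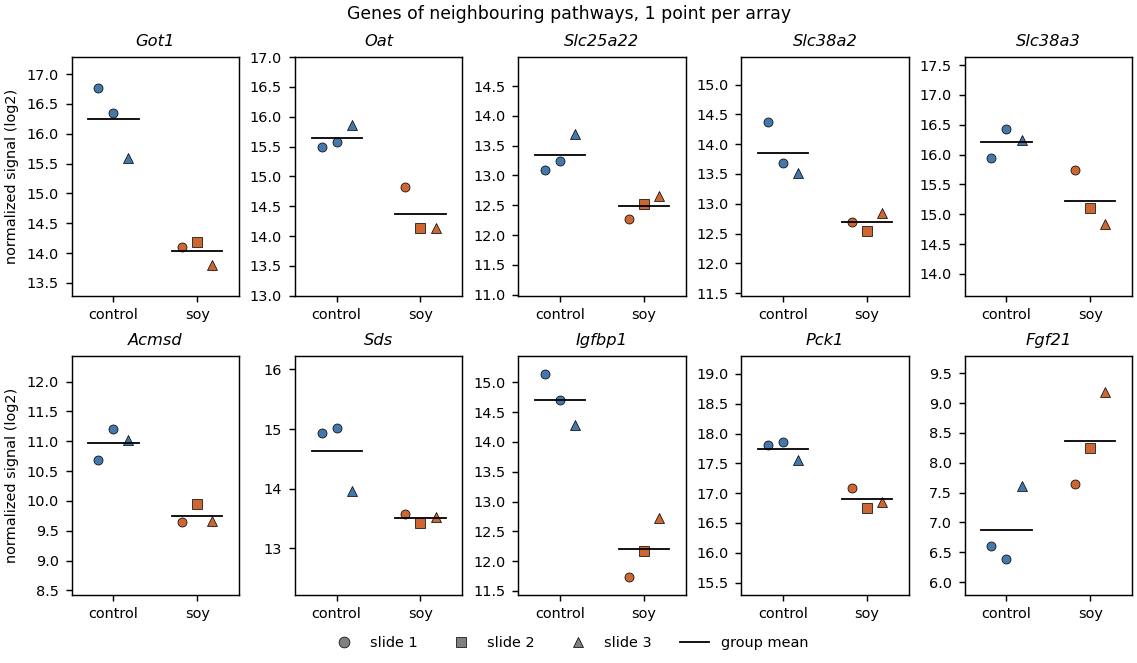
Normalized signal (log2) of 10 genes of related pathways, with 1 point per array, the group mean as a line and the slide as the marker shape. The groups do not overlap in any of these 10 genes, which were drawn from those named for groups without overlap; only Got1, Acmsd and Igfbp1 were called.

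Arginine, ornithine and proline branches held 19 measured genes of 21, with none called and a median of -0.05. Oat, which removes ornithine towards glutamate and proline, read 15.49, 15.58 and 15.86 in the control livers and 14.82, 14.14 and 14.14 in the soy livers, a change of -1.28 (SE 0.20) whose adjusted p of 0.0593 (limma) missed the threshold. It was -0.71 within slide 1 and -1.72 within slide 3. Some other processing called Oat, at an adjusted p of 0.00981 for the processed signal and 0.0425 for a 75th-percentile shift (limma). The adjusted p was 0.0302 among probes well above background and 0.0451 with trend and robust settings (limma), also called. These settings called more probes in all, 13138, 299, 497 and 290 in that order, against 198 in the main fit. Oat was not called without background correction, with an offset of 16, with cyclic loess or with outlier spots kept. Nor was it called with the mean of its probes, the deposited values or either block. Odc1, which takes ornithine into polyamines, overlapped between the groups, with a change of 0.05, whereas Azin1, an inhibitor of the antizyme that targets Odc1, was lower on every soy array, by -0.61 (SE 0.13, adjusted p 0.135). Sms (spermine synthase) and Gatm, which starts creatine synthesis from arginine, were higher on every soy array, with changes of 0.37 (adjusted p 0.206) and 0.29 (adjusted p 0.444). The groups of Gatm were separated by 0.005 log2 units only. In this list the soy arrays lay wholly above the controls for 3 genes and wholly below for 2 (9.68% and 10.8% of all genes).

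Related transporters numbered 24, with none called and a median of 0.00. The soy arrays lay wholly below the controls for 4 and wholly above for 1 (10.8% and 9.68% of all genes), and the 3 lower ones with the largest change were the mitochondrial glutamate carrier Slc25a22 and the carriers Slc38a2 and Slc38a3, which take up glutamine and other neutral amino acids. Slc38a2 read 14.37, 13.69 and 13.51 in the control livers and 12.69, 12.55 and 12.84 in the soy livers, with a change of -1.16 (SE 0.22, adjusted p 0.0907, limma), which was -1.34 within slide 1 and -0.67 within slide 3. Slc38a3 had a change of -0.98 (adjusted p 0.166), with -0.44 within slide 1 and -1.40 within slide 3, and Slc25a22 one of -0.86 (adjusted p 0.115). Slc7a7, which exports cationic amino acids from the cell, was higher on every soy array, with a change of 0.80 (SE 0.22, adjusted p 0.208), which was 0.29 within slide 1 and 1.44 within slide 3.

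Amino acid breakdown enzymes, whether or not their own step releases nitrogen, were measured in 42 genes. Of these, 30 had a change below 0, the soy arrays lay wholly below the controls for 12 and wholly above for 1 (10.8% and 9.68% of all genes), and the median was -0.12. Acmsd, an enzyme of tryptophan breakdown, was the only one called. It read 10.69, 11.21 and 11.02 in the control livers and 9.65, 9.94 and 9.66 in the soy livers, and fell by 1.22 (SE 0.16, adjusted p 0.0326, limma). Sds, the serine dehydratase of portal hepatocytes, read 14.93, 15.02 and 13.96 against 13.57, 13.43 and 13.52, a change of -1.13 (adjusted p 0.151), with control 3 far below the other 2 controls. Its change was -1.40 within slide 1 and -0.44 within slide 3. Agxt (alanine-glyoxylate transaminase), Aass (first enzyme of lysine breakdown) and Hpd (tyrosine breakdown) had changes of -0.94, -0.72 and -0.65, none of them called.

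**Figure D4:**
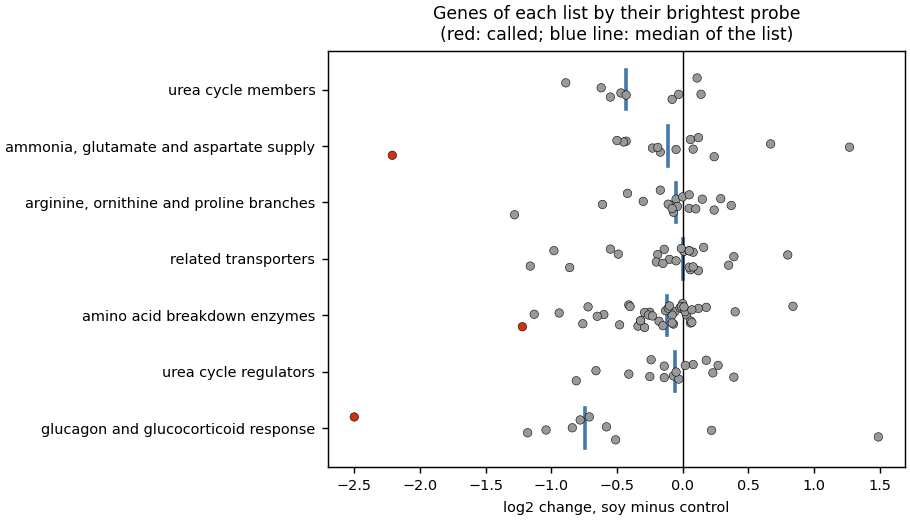
Change (soy minus control, log2) of each measured gene in the urea cycle and in 6 lists of related genes, by the brightest probe, with a blue line at the median of each list; red points were called. The median of the urea cycle members is -0.43, that of the glucagon and glucocorticoid response -0.75, and those of the other lists lie between -0.12 and 0.00.

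Regulators of the cycle, 16 genes with none called, had a median change of -0.06. Cebpb, a factor that acts on promoters of urea cycle genes, was lower on every soy array, with a change of -0.66 (SE 0.21, adjusted p 0.292). Taken separately, its change was -0.71 within slide 1 and -0.07 within slide 3. Nr1h4, the bile acid receptor FXR, was higher on every soy array, with a change of 0.39 (adjusted p 0.262). Sirt5, the deacylase that acts on the Cps1 protein, overlapped between the groups, with a change of -0.24 (adjusted p 0.699).

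The response to glucagon and glucocorticoids, hormones that also raise the enzymes of the cycle, was read from 10 genes with a median change of -0.75. Igfbp1, a secreted IGF-binding protein induced by fasting, read 15.14, 14.70 and 14.29 in the control livers and 11.74, 12.17 and 12.73 in the soy livers, and fell by 2.50 (SE 0.29, adjusted p 0.0242, limma). Its change was -3.18 within slide 1 and -1.56 within slide 3. Pck1, the rate-limiting enzyme of gluconeogenesis, read 17.81, 17.85 and 17.55 against 17.09, 16.75 and 16.85, a change of -0.84 (SE 0.13, adjusted p 0.0576). Some other processing called Pck1, at an adjusted p of 0.00896 with the processed signal and 0.0418 with a 75th-percentile shift (limma). Pck1 was also called with cyclic loess (0.0391) and among probes well above background (0.0306). Trend and robust settings (0.033) and the mean of its probes (0.0482) called it as well. Of these settings, cyclic loess called 187 probes in all, against 198 in the main fit, and those also named for Oat called more. Pck1 was not called without background correction, with an offset of 16 or with outlier spots kept. Nor was it called with the deposited values, either block or any 1 array left out. Fkbp5 and Cpt1a were also lower on every soy array, with changes of -1.18 (adjusted p 0.146) and -0.51 (adjusted p 0.257), the latter -0.14 within slide 1 and -0.70 within slide 3. Fgf21, a fasting hormone, was well above background on all soy arrays, where it read 7.65, 8.24 and 9.19, but on 1 of the 3 control arrays alone, so that its change is not given as a measured fold. It was not called (adjusted p 0.241). The part of these genes in the values of the urea cycle members was not tested.

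The tissue was checked against markers. All 8 hepatocyte markers were well above background on all arrays, and their summed signal (log2), with Serpina1a the brightest probe on average, was 21.13, 21.19 and 21.15 in the control livers and 21.11, 21.03 and 21.04 in the soy livers. The summed signal of 8 markers of portal hepatocytes, with Cyp2f2 the brightest, was 19.50, 19.50 and 19.38 against 19.25, 19.07 and 19.18, and that of 10 markers of central hepatocytes, with Cyp2e1 the brightest, was 19.01, 19.04 and 19.04 against 18.92, 18.76 and 18.60. The brightest probe weighs most in a sum and does not rank the transcripts. All 3 sums were lower on every soy array. Of the 8 portal markers, however, 4 had a change above 0 and 4 below, with a median of -0.03. Cyp2f2 itself overlapped between the groups (change -0.07), and 2, Sds and Pck1, which also stand in the lists above, had soy arrays wholly below the controls, beside 10.8% of all genes. Of the 10 central markers, 9 had a change below 0. Oat had soy arrays wholly below the controls, and Lgr5, with a change of 0.75, wholly above them (9.68% of all genes). None of these markers was called, and their part in the values of the members was not tested. In bulk liver, fewer cells of a type and less RNA per cell cannot be told apart.

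Cps1 and Otc are also expressed in the gut. Of 8 enterocyte markers, Vil1, Cdx1, Cdx2 and Lct were well above background on none of the arrays, Sis and Muc2 on 1 array each, and Fabp2 and Anpep on all 6. The summed signal of these markers, with Fabp2 the brightest, was 15.82, 15.55 and 15.58 in the control livers and 15.50, 15.46 and 15.62 in the soy livers. Of 10 Kupffer cell markers, 9 had a change above 0 and none was called, with a summed signal, with Cd5l the brightest, of 15.03, 15.66 and 15.98 in the control livers and 15.44, 15.71 and 16.06 in the soy livers. All 6 pancreas markers had a change below 0 and none was called. Their summed signal, with Cela1 the brightest, was 14.90, 15.51 and 15.26 against 14.45, 14.78 and 14.33, lower on every soy array. Cpa1, Prss2 and Pnlip were well above background on 2 of the 3 control arrays and on none of the soy arrays, and Ins2 on none at all. The part of these markers in the results was not tested. Of the other cell types, stellate cell markers, with Dcn the brightest, summed to 15.99 to 16.22 against 15.80 to 16.06. Of the 8, 7 had a change below 0, and Col1a1 (0.501 times control) and Col3a1 (0.522 times control) had soy arrays wholly below the controls without being called. Of all 22911 genes, 11723 had a change below 0 and 10.8% had groups wholly lower in soy. Sums were, for endothelial markers, 15.60, 15.56 and 15.53 against 15.58, 15.77 and 15.66, for red cell and neutrophil markers, 17.70, 17.26 and 17.84 against 17.39, 18.49 and 17.63, and for cholangiocyte markers, 11.88, 11.40 and 11.40 against 11.76, 11.37 and 11.85. The groups overlapped in these 4 sums.

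The values of the members were set against other ways of processing the arrays. Over 18 alternatives for each member, 160 of 162 changes kept their sign, and the 2 that turned were both of Slc25a13, at 0.00 with the processed signal and 0.01 with the mean of its probes. Not all of these values could turn. Trend and robust settings, the filter for probes well above background and the replicate block leave the change itself as in the main fit. The mean of the probes does so for members with 1 probe. Slc25a15 ranged from -0.73 to -0.48 and was called in 1 alternative, the processed signal of the scanner software, where its change was -0.73 at an adjusted p of 0.0259 (limma). Cps1 ranged from -0.58 to -0.37, Ass1 from -0.67 to -0.44 and Slc7a2 from -1.18 to -0.61, and none of these was called in any alternative. Asl ranged from -0.60 to -0.25, Otc from -0.21 to 0.00, Nags from 0.06 (without control 1) to 0.20 and Aqp9 from 0.03 (without soy 1) to 0.20, also without a call. With the processed signal, Cps1 had an adjusted p of 0.0487 (limma) at a change of -0.45, short of the fold threshold.

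**Figure D5:**
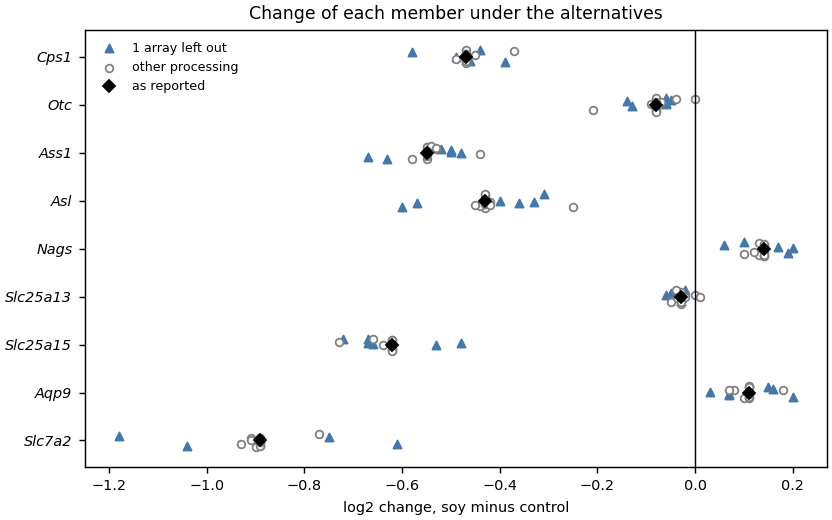
Change (soy minus control, log2) of each urea cycle member as reported (black diamonds), with 1 array left out (triangles) and with other processing (open circles). The values of Slc25a13 lie on both sides of 0, and those of Cps1, Ass1, Asl, Slc25a15 and Slc7a2 are all below it.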

How the data were processed

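Each array was hybridized in 1 colour, and per the file headers the deposited spot tables of Feature Extraction 11.5.1.1 hold the median intensity of a spot and of the background around it, not scaled between arrays. The deposited log2 table of these spots had array medians of 7.33 to 7.34 and lay within 0.071 of the values computed here. The study's methods give the raw median signal as input and limma with Benjamini-Hochberg adjustment as the test, and are silent on background and normalization.

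Here normexp (offset 50) was applied to the median intensities, control spots were dropped, and quantile normalization and log2 followed. Outlier spots were then left out, and repeated spots were averaged per probe. The fit of soy against control used limma 3.58.1 (R 4.3.3) over all 56605 probes, of which 79 lacked an array, and was tested on simulated data. An exact permutation test of 3 against 3 arrays cannot go below 0.1 and was not used. RefSeq accessions gave a symbol to 32994 probes (58.3%) by a GRCm38.p6 table. The array design was annotated on a different assembly, and probe positions are therefore left out. Python 3.11.15, pandas 2.3.3 and matplotlib 3.10.9 made the tables and plots.

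The members and lists were chosen with earlier results of these data known. A member and its paralogue are not reported here, and the counts and the median of the members leave that member out. Named were the other members, the called genes of each list with up to 4 of the largest changes without overlap, and paralogues and partners of the members. Background correction was varied (none, or an offset of 16), as was the scaling (75th-percentile shift, cyclic loess). The processed signal of the software and the deposited log2 values replaced the signal. Further alternatives kept outlier spots, kept only probes well above background in all of a group's arrays, averaged the probes of a gene, used eBayes with trend and robust, dropped the fold threshold, blocked on slide or on replicate number, or left out 1 array.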

Additional observations from a re-analysis of the deposited data

How the results depend on the processing

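None of the urea cycle members was called in any alternative except the processed signal, where 1 (Slc25a15) was. The changes of Slc25a13 turned to 0.00 with the processed signal and 0.01 with the mean of its probes, while Otc, also 0.00 at 2 decimals with the processed signal, and the other members did not turn. The 198 probes called in all became 77 with an offset of 16, 299 with a 75th-percentile shift, 497 among probes well above background, 25 with the slide as a block and 13138 with the processed signal, where 11924 were higher and 1214 lower against 118 and 80. The processed signal and the 75th-percentile shift moved the median of all probes to 0.125 and 0.134. The cause was not tested. Of the related genes, 3 were called, against 1 with an offset of 16, 13 with the processed signal (1 higher, 12 lower), 5 with a 75th-percentile shift, 6 among probes well above background, 5 with trend and robust settings and 0 with the slide as a block. Leaving out 1 array gave 25 to 203 probes (102, 71 and 203 without control 1, 2 and 3, and 50, 25 and 27 without soy 1, 2 and 3), 0 members and 0 to 5 related genes (1, 0 and 5, and 1, 0 and 1 in the same order).

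The deviations of arrays with the same replicate number from their group means correlated by 0.122, -0.061 and 0.097, so the numbers were not taken as pairs. The arrays numbered 1 and those numbered 3 also shared a slide. Control 2 and soy 1, which shared a slide too, correlated by 0.078. Pairs with unlike numbers on different slides ranged from -0.206 to 0.105. The main fit held no term for the slide. With the replicate block, 78 probes, 0 members and 2 related genes (Got1 and Acmsd) were called, and Igfbp1 was not (adjusted p 0.0854, limma). All probes of the members were well above background on all arrays. The part that the difference between the groups in such spots had in the results was not tested. The 3 arrays per group left intervals of up to -1.56 to -0.23 (Slc7a2).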
